A study of Mus musculus with 47 samples.

Results

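The 9 genes described here encode the light chains of striated muscle myosin, a kinase that phosphorylates regulatory light chains, and the actins of the sarcomere: Myl1, Myl2, Myl3, Myl4, Mylpf, Myl6b, Mylk2, Acta1 and Actc1. They were chosen by symbol, and they are 9 of the 45650 genes left after IDs with 1 symbol were summed. Their RNA was measured by polyA-selected RNA-seq in 47 libraries of C2C12, a mouse skeletal muscle myoblast line that fuses into myotubes after serum withdrawal. All cultures came from 3 C2C12 lines. C2C12 iMyoD1 keeps its endogenous MyoD1 and carries Halo-MyoD1 under a doxycycline (dox) inducible promoter. The lines iCdh23 and iMcam carry inducible Cdh23 or Mcam, which encode adhesion proteins. Every dox group had a vehicle-treated group of the same line, and dox was given at 1 µg/mL. The iMyoD1 cells were taken undifferentiated (0 h, with 24 h of dox or vehicle), or after 24, 48 or 120 h in differentiation medium with dox or vehicle for that whole time. The paper describes dox as added at the onset of differentiation, with the medium not replaced. In its endogenously tagged line it reports induced Halo-MyoD1 as back near the endogenous level by 48 h. At 120 h the culture was taken whole, or passed through a 40 µm strainer into a flow-through called myoblast-enriched and a retentate called myotube-enriched. The iCdh23 and iMcam cells were taken at 48 h. Each of the 16 groups held 3 biological replicates, apart from the myoblast-enriched dox group with 2. The iMyoD1 line is a polyclonal pool, so cells within a culture can differ in transgene level, and no animal or tissue was sampled.

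Myosin in the sarcomere is a hexamer whose heavy chain necks each bind an essential light chain and a regulatory light chain. Myl1 encodes the essential chains of fast fibres, Myl3 that of slow fibres and ventricle, Myl4 the embryonic and atrial essential chain, and Myl6b an essential chain shared with slow muscle and non-muscle cells. Mylpf encodes the regulatory chain of fast fibres and Myl2 that of slow fibres and ventricle, and Mylk2 is the skeletal kinase that phosphorylates the regulatory chain when calmodulin binds calcium. Acta1 is the main thin filament actin of adult skeletal muscle, and Actc1, the cardiac actin, is expressed in embryonic and regenerating skeletal muscle. MyoD1 and its relatives bind E-boxes with the letters CANNTG, and serum response factor binds CArG boxes in the promoters of muscle actins.

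In the mouse genome (GRCm38, which is mm10) Myl1 lies on the minus strand at chr1:66924295-66945404 and makes 2 proteins from 2 starts. Myl1-201 begins upstream, and its coding sequence has 567 bases. Myl1-202 begins further downstream, and its coding sequence has 453 bases. Both share the last 426 coding bases, so the products differ in 141 and 27 bases at the 5′ end. These starts are printed because the counts were split between them differently in different groups. They are the GENCODE coding starts, with each transcript's own bases in capitals and the first 15 shared bases in lower case.
Myl1-201: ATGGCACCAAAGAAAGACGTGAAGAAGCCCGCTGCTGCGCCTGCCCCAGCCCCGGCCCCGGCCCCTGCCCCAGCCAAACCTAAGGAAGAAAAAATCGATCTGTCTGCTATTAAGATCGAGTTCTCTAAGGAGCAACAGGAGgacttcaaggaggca
Myl1-202: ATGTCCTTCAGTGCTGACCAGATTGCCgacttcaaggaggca

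The promoters of the most abundant members are shown next, since MyoD1 is the factor that was induced. They are RefSeq windows of GRCm38.p6 ending just before the annotated start (for Actc1, 12 bases earlier, before the GENCODE start), read 5′ to 3′ on the gene's strand, with E-boxes (CANNTG) and CArG boxes in capitals. Mylpf is on the plus strand (chr7:127211448-127211607), and Acta1 (chr8:123894776-123895025) and Actc1 (chr2:114052888-114053035) are on the minus strand.
Mylpf: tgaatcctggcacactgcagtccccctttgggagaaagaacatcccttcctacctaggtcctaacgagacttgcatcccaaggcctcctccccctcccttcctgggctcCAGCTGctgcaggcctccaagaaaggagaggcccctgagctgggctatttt
Acta1: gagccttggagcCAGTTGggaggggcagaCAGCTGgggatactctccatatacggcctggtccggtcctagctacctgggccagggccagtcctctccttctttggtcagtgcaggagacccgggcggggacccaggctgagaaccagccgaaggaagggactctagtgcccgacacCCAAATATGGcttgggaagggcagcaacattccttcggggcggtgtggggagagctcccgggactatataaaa
Actc1: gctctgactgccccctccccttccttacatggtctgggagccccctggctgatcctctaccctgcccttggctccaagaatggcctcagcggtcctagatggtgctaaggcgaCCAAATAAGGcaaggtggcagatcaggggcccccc

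The E-box CAGCTG stood 51 bases before the start of Mylpf, 221 before that of Acta1 and 224 before that of Myl1. It was found in the 250 bases before the start of 4 of the 8 members with a RefSeq window (Myl1, Myl2, Mylpf and Acta1), and in 13% of all 32851 windows. Any E-box was found for 6 of the 8, and in 66.2% of all windows. Counted from the RefSeq start, a CArG box was found 73 bases before the start of Acta1, 47 before that of Actc1 and 85 before that of Myl3, and in 1.47% of all windows. Motifs were searched on both strands, every CAGCTG is also a CANNTG, and no member window held a MEF2 box, a motif found in 2.92% of all windows. The Myl4 window belongs to a start well upstream of that of Myl4-202, the transcript with most of its counts, and the Myl2 windows lie upstream of the GENCODE gene. The Myl1 window, with its CAGCTG, is likewise at the upstream start of Myl1-201, whereas Myl1-202 held 64.6% of the Myl1 counts. The matches are letters in a window and say nothing of binding in these cells.

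Total counts ran from 15066338 to 50950674 per library, with a median of 22837926. Levels are given as CPM (counts scaled to a common library total) after TMM normalisation, and between genes as TPM, the same per unit of annotated transcript length, computed here. A gene passed a test at a Benjamini-Hochberg adjusted p under 0.05 from edgeR's quasi-likelihood fit over all genes, and only such genes are said to have risen or fallen. The induced genes were checked first. Mcam in iMcam was at 17.1 to 19.8 CPM without dox and 69.0 to 74.7 CPM with it. Cdh23 in iCdh23 was at 348 to 451 CPM without dox and 426 to 568 CPM with it, so the ranges overlap, against 5.61 to 8.86 CPM in iMcam without dox. Myod1 counts in iMyoD1 at 48 h were 382 to 391 CPM without dox and 295 to 323 CPM with it. Whether transgene reads are counted under Myod1 is not given in the sources used here. At least 6 of the 8 myogenic markers exceeded 3 counts in every group. Of the 7 cardiac markers at most 4 exceeded 3 counts in any group, and Myl7, the atrial regulatory light chain, had at most 1 count in any library, while Myh6, the alpha cardiac heavy chain, reached 67.3 CPM in a myotube-enriched vehicle library. Nkx2-5 reached 16.4 CPM, with no count in 1 library, and Tnni3 reached 4.12 CPM, with counts in every library. Nppa, Ryr2 and Tbx5 had at most 7, 15 and 3 counts. Summed smooth muscle markers were at 36.0 to 251 CPM over the libraries. Of these Smtn reached 245 CPM and Actg2 19.5 CPM, while Myh11 and Myocd had at most 34 and 8 counts. Each adipocyte marker had at most 2 counts in any library.

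**Figure D1:**
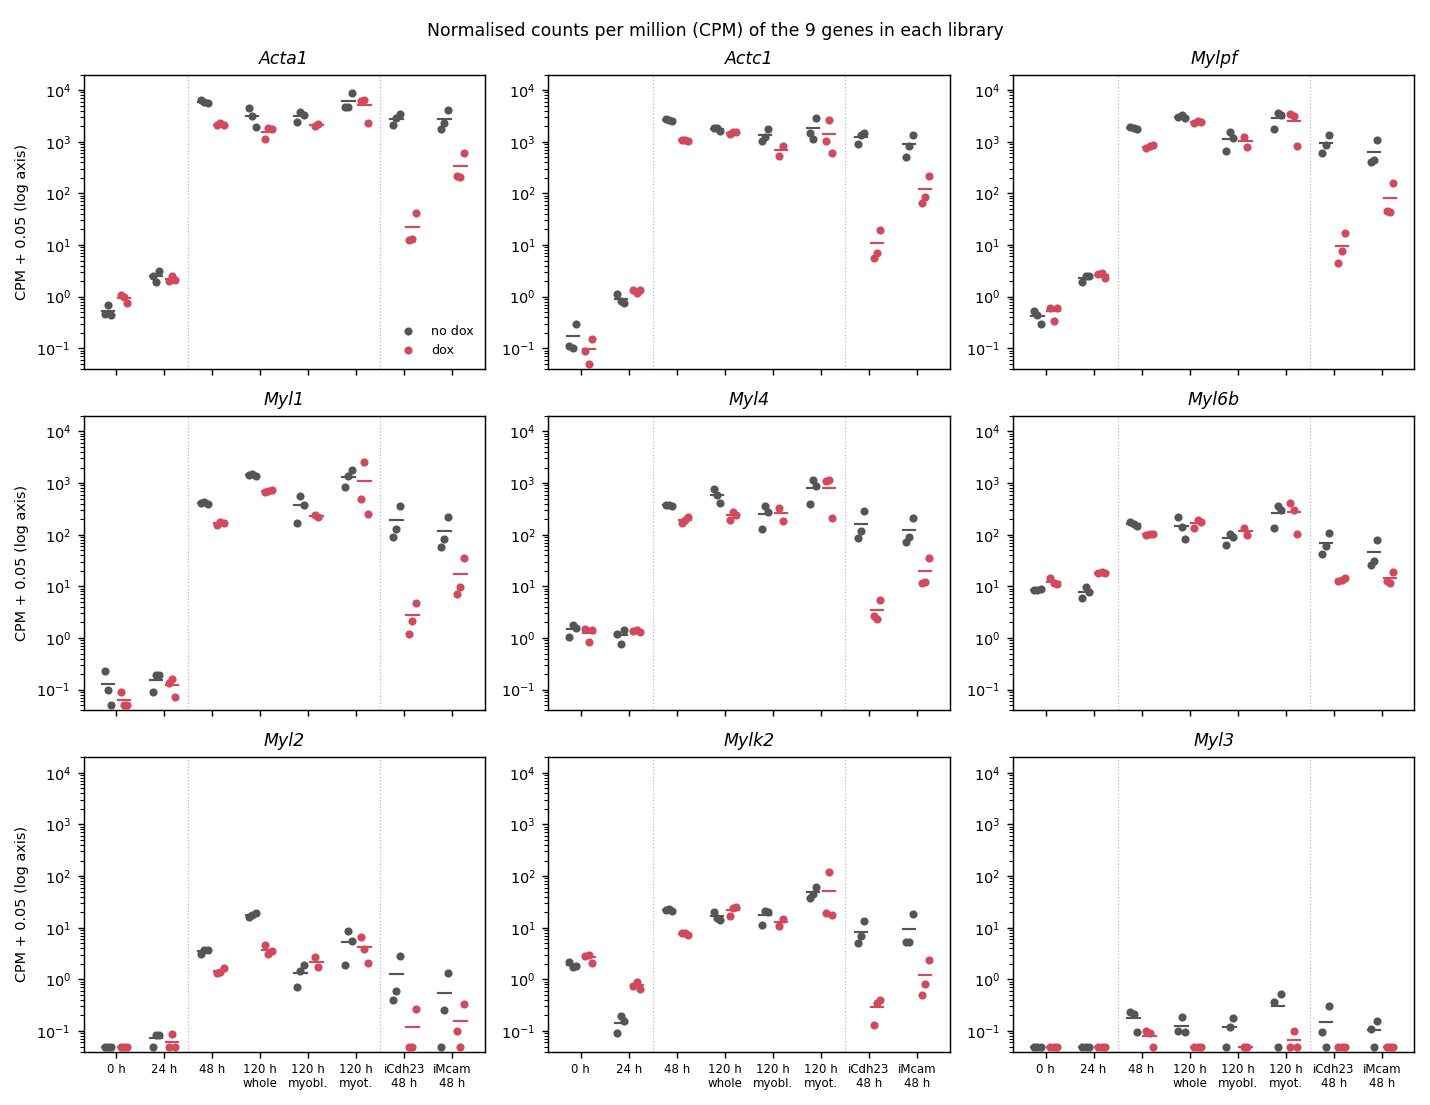
CPM of each gene plus 0.05 on a log axis, 1 point per library and a line at each group's mean, without dox (grey) and with dox (red). Dotted lines separate the 0 and 24 h libraries and the iCdh23 and iMcam lines from the rest. Acta1 lies at or below 3.08 CPM in all 0 and 24 h iMyoD1 libraries and at or above 1147 CPM in all 48 and 120 h iMyoD1 libraries.

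In iMyoD1 the sarcomeric actins and fast light chains were near 0 CPM at 0 and 24 h and far higher from 48 h on. The 9 genes together took 0.00142% ± 0.000179 (SD, n = 3) of all counts at 24 h without dox, 1.04% ± 0.0386 at 48 h and 0.904% ± 0.154 in the whole culture at 120 h. At 48 h without dox, Acta1 stood first with 6700 ± 244 TPM (SD, n = 3), followed by Mylpf with 3929 ± 37.2 TPM, Actc1 with 2879 ± 85.4 TPM, Myl1 with 809 ± 29.5 TPM and Myl4 with 663 ± 7.64 TPM. Myl6b reached 258 ± 12.7 TPM. Mylk2 reached 12 ± 0.590 TPM and Myl2 8.46 ± 0.989 TPM. Of the regulatory chains, Mylpf was 99.8% ± 0.0265 of Mylpf plus Myl2 per length. In the whole culture at 120 h the order was another, and Mylpf stood first with 7622 ± 472 TPM, ahead of Acta1 with 4219 ± 1747 TPM and Myl1 with 3552 ± 158 TPM. Mylpf and Acta1 did not overlap at either time. In both vehicle fractions of 120 h Acta1 had the higher mean, 6719 ± 2205 against 6087 ± 2115 TPM in the myotube-enriched and 3658 ± 586 against 2455 ± 798 TPM in the myoblast-enriched fraction, and the libraries overlapped in each. Fractions and whole cultures were handled differently and come from separate sets of libraries, so the order of the whole culture was not seen in its fractions.

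From 0 to 24 h without dox, 3 of the 6 members tested rose, where 37.3% of all 13632 genes tested rose, and 1 fell, where 37.0% fell. The 3 others, Myl1, Myl2 and Myl3, had too few counts to test. Mylpf went from 0.376 ± 0.116 to 2.28 ± 0.325 CPM (log2 fold change 2.64 ± 0.32 SE, adjusted p = 4.65e-06 by edgeR) and Acta1 from 0.489 ± 0.140 to 2.45 ± 0.619 CPM (2.34 ± 0.32, adjusted p = 1.6e-05). Actc1 rose from 1 to 5 counts per library to 20 to 27 counts. Mylk2 moved the other way. It had 34 to 36 counts per library at 0 h and 1 to 4 at 24 h, a log2 fold change of -4.14 ± 0.43 (adjusted p = 8.85e-07), so its lowest level in iMyoD1 came after the first day of differentiation. With dox, Mylk2 also fell over that day (log2 fold change -1.88 ± 0.27, adjusted p = 3.05e-05), where 34.0% of genes fell, and Mylpf, Actc1, Acta1 and Myl6b rose. That made 4 of the 6 tested, against 34.0% of genes that rose. With all 16 groups in 1 fit, fewer members were called higher over that day with dox.

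From 24 to 48 h without dox all 8 members tested rose, against 38.4% of 14017 genes, and with dox again 8 of 8, against 36.9%. All 8 changed over 2-fold in each, where 19.3% and 17.0% of genes rose that far. Without dox Actc1 went from 0.856 ± 0.212 to 2613 ± 134 CPM and Acta1 from 2.45 ± 0.619 to 5969 ± 341 CPM, log2 fold changes of 11.59 ± 0.13 and 11.25 ± 0.15. Myl1 had 1 to 4 counts per library at 24 h and 395 to 423 CPM at 48 h. Myl2 had at most 1 count at 24 h, and its 3.45 ± 0.312 CPM at 48 h was at least 28.3-fold above the level of 3 counts per library. The smallest increase was that of Myl6b (log2 fold change 4.36 ± 0.13), which already stood at 7.88 ± 1.99 CPM. The 48 and 120 h libraries carry a batch label and the 0 and 24 h libraries carry none, so this step and the batch cannot be told apart.

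Between 48 and 120 h without dox in whole cultures, the light chains Myl1, Myl2, Mylpf and Myl4 rose, 4 of the 8 members tested (33.0% of 13785 genes rose), while Acta1, Actc1 and Mylk2 fell (34.1% of genes fell). Myl1 went from 410, 423 and 395 CPM to 1448, 1499 and 1379 CPM, a log2 fold change of 1.84 ± 0.08 (adjusted p = 4.9e-07 by edgeR). Mylpf went from 1901, 1866 and 1790 CPM to 3056, 3278 and 2877 CPM (0.75 ± 0.09, adjusted p = 8.3e-05). All 3 later libraries lay above all earlier ones for both genes. Acta1 went from 6340, 5900 and 5669 CPM to 4521, 3198 and 1899 CPM (-0.88 ± 0.25, adjusted p = 0.012), and Actc1 from 2479 to 2747 CPM to 1607 to 1840 CPM (-0.55 ± 0.09, adjusted p = 0.00066). The fall of Mylk2 (-0.39 ± 0.14, adjusted p = 0.034) was lost without any of 5 of the 6 libraries, with adjusted p from 0.053 to 0.13. Myl6b did not pass (-0.13 ± 0.27, adjusted p = 0.68), although without vehicle replicate 1 at 120 h it passed as lower (-0.51, adjusted p = 0.031). With dox 7 of 8 rose over the same interval, against 34.9% of genes, Actc1 among them (0.49 ± 0.09, adjusted p = 0.00017), and only Acta1 of those tested fell (-0.45 ± 0.14, adjusted p = 0.012), where 38.6% of genes fell. The rise of Myl4 with dox (0.32 ± 0.13, adjusted p = 0.038) was lost without replicate 1 or 2 at 48 h or replicate 2 or 3 at 120 h, with adjusted p from 0.10 to 0.22. With all 16 groups in 1 fit, Myl1 and Myl2 passed as higher without dox (23.4% of genes) and Myl1, Mylpf and Mylk2 with dox (26.5%), and no member passed as lower in either.

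Before 48 h, the members that passed with dox were Myl6b and Mylk2, both higher. In undifferentiated cells Myl4, Myl6b, Mylk2 and Acta1 had enough counts to test, and 1 of the 4 rose, Myl6b (8.58 ± 0.263 to 12.3 ± 1.65 CPM, log2 fold change 0.54 ± 0.12, adjusted p = 0.0029 by edgeR), where 19.1% of 13550 genes rose. With all 16 groups in 1 fit, Myl6b did not pass at 0 h. Acta1 did not pass (0.86 ± 0.38, adjusted p = 0.086), although its dox libraries, like those of 24.1% of genes, all lay above the vehicle libraries. At 24 h 2 of 6 tested rose, where 31.1% of 14078 genes rose. Myl6b was at 5.89, 9.86 and 7.89 CPM without dox and at 18.0 to 18.6 CPM with it (1.18 ± 0.14, adjusted p = 1.8e-05). Mylk2 had 1 to 4 counts per library without dox and 23 to 28 with it (2.78 ± 0.49, adjusted p = 0.00035). Neither gene's libraries overlapped between the groups, as for 35.4% of genes in that direction. Acta1 was at 1.84 to 3.08 CPM without dox and 1.94 to 2.52 CPM with it (-0.22 ± 0.22, adjusted p = 0.39), and Actc1 at 0.693 to 1.10 against 1.15 to 1.32 CPM (0.53 ± 0.26, adjusted p = 0.10). Without replicate 1 of the 24 h vehicle group, Actc1 passed (0.74, adjusted p = 0.046).

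At 48 h dox lowered every member that could be tested. All 8 fell (28.7% of 13871 genes fell), and 6 of the 8 fell more than 2-fold (8.46% of genes). Their median log2 fold change was -1.30, beside 0.011 over all genes. Acta1 was at 6340, 5900 and 5669 CPM without dox and 2085, 2292 and 2063 CPM with it, a 2.81-fold lower level (log2 fold change -1.49 ± 0.08, adjusted p = 1.6e-07 by edgeR). Actc1 was at 2747, 2612 and 2479 against 1069, 1087 and 1055 CPM (-1.30 ± 0.07, adjusted p = 1.8e-07). For both actins, as for the other 6 genes, no dox library reached the lowest vehicle library, which held for 31.1% of genes. Among the essential chains Myl1 went from 395 to 423 CPM to 157 to 177 CPM (-1.29 ± 0.07, adjusted p = 1.0e-07), Myl4 from 357 to 384 CPM to 169 to 216 CPM (-0.97 ± 0.09), and Myl6b from 151 to 174 CPM to 97.0 to 105 CPM (-0.69 ± 0.07), the smallest change of the set. The regulatory chain Mylpf went from 1790 to 1901 CPM to 741 to 854 CPM (-1.22 ± 0.08). Its slow counterpart Myl2 went from 3.09 to 3.64 CPM to 1.25 to 1.57 CPM (-1.34 ± 0.21). Mylk2, higher with dox a day earlier, was at 20.6 to 23.1 CPM without and 7.08 to 7.94 CPM with dox (-1.53 ± 0.09, adjusted p = 3.0e-07), the largest change of the set. In a whole culture fewer cells of a type and less RNA per cell cannot be told apart. Summed myogenic markers moved with the members, from 7416 to 8044 CPM without dox to 3742 to 3864 CPM with it, and summed proliferation markers from 1074 to 1095 CPM to 315 to 329 CPM. Their part in the result was not tested. When all 16 groups shared 1 estimate of the spread, Mylpf, Mylk2, Acta1 and Actc1 passed at 48 h, where 14.0% of genes were called lower, and the other 4 had adjusted p from 0.094 to 0.18.

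**Figure D2:**
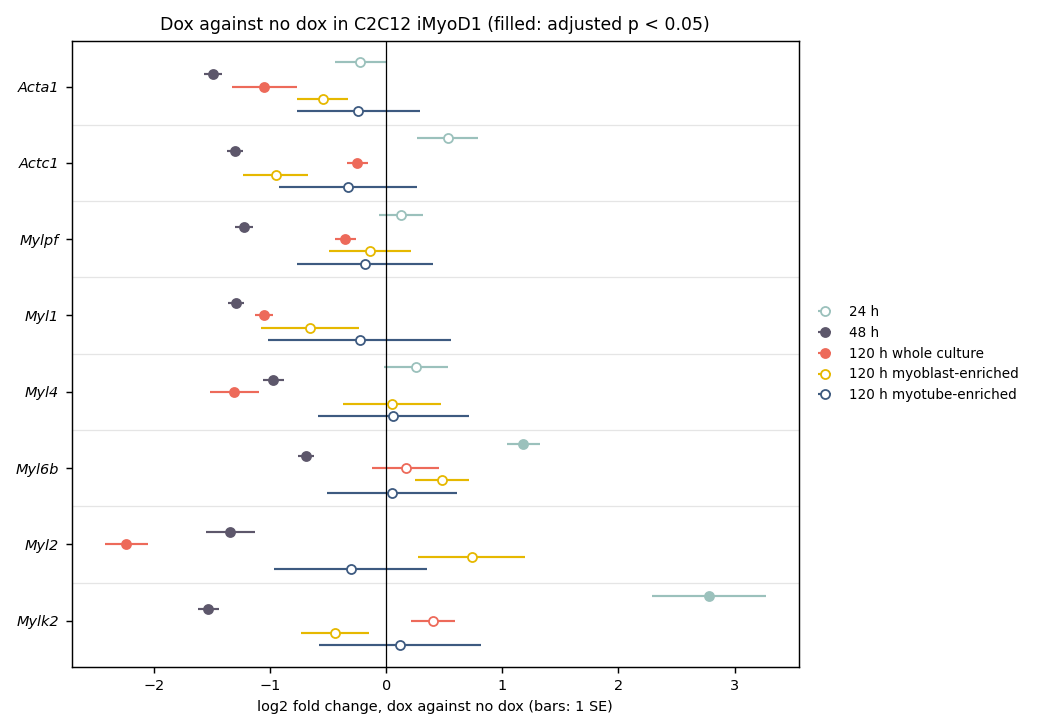
Log2 fold change of dox against vehicle in C2C12 iMyoD1 for the 8 members with enough counts, with 1 standard error on each side, by time and fraction. Filled points passed at an adjusted p under 0.05. At 48 h all 8 points are filled and lie between -1.53 and -0.69, while at 120 h they spread from -2.24 for Myl2 to 0.41 for Mylk2 in the whole culture.

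In the whole culture at 120 h the members no longer moved as 1 block. Of 8 tested, 6 fell, where 23.7% of 13627 genes fell, and 4 of them fell more than 2-fold, where 8.80% did. Myl2 had the largest change, from 16.2, 17.3 and 18.8 CPM without dox to 4.55, 3.08 and 3.55 CPM with it (log2 fold change -2.24 ± 0.19, adjusted p = 1.9e-05 by edgeR). Myl1 went from 1379 to 1499 CPM to 679 to 728 CPM (-1.05 ± 0.08, adjusted p = 1.1e-05) and Myl4 from 762, 581 and 411 CPM to 191, 279 and 244 CPM (-1.31 ± 0.21, adjusted p = 0.0010). None of these 3 overlapped between the groups, as for 27.0% of genes in that direction. Acta1 was at 4521, 3198 and 1899 CPM without dox and 1147, 1809 and 1734 CPM with it (-1.05 ± 0.28, adjusted p = 0.014), so the lowest vehicle library lay just above the highest dox library. Mylpf and Actc1, which had fallen more than 2-fold at 48 h, fell little. Mylpf went from 2877 to 3278 CPM to 2285 to 2564 CPM (-0.35 ± 0.09, adjusted p = 0.010) and Actc1 from 1607 to 1840 CPM to 1409 to 1570 CPM (-0.25 ± 0.09, adjusted p = 0.048). Both calls depended on single libraries: Mylpf was lost without dox replicate 1 or 3 (adjusted p = 0.057 and 0.052), and Actc1 without any library but vehicle replicate 3 (adjusted p from 0.069 to 0.18). Mylk2 was at 13.9 to 19.9 CPM without dox and 17.0 to 25.1 CPM with it (0.41 ± 0.19, adjusted p = 0.11), and it passed as higher without replicate 1 of either group (0.56 and 0.57, adjusted p = 0.037 and 0.036). Myl6b was at 81.9 to 217 CPM and 133 to 192 CPM (0.17 ± 0.29, adjusted p = 0.67). Here summed proliferation markers were higher with dox, 423 to 492 CPM against 216 to 255 CPM, and summed myogenic markers lower, 8171 to 9341 CPM against 10591 to 12972 CPM. Their part in the result was not tested. With all 16 groups in 1 fit, Myl2, Myl4 and Acta1 passed, where 19.1% of genes were called lower.

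The change in the dox effect between 48 and 120 h was tested as an interaction, and 4 of the 8 members passed, against 34.1% of 14734 genes in either direction. The effect on Mylk2 differed by 1.94 ± 0.22 on the log2 scale (adjusted p = 1.6e-05 by edgeR), on Actc1 by 1.06 ± 0.11 (adjusted p = 8.5e-06) and on Mylpf by 0.87 ± 0.12 (adjusted p = 8.1e-05), each higher at 120 h than at 48 h. The effect on Myl2 was more negative at 120 h by 0.89 (-0.89 ± 0.25, adjusted p = 0.014). Of the essential chains, Myl1 (0.24 ± 0.10, adjusted p = 0.083) and Myl4 (-0.33 ± 0.26, adjusted p = 0.34) did not pass. Acta1 (0.45 ± 0.32, adjusted p = 0.32) and Myl6b (0.86 ± 0.34, adjusted p = 0.064) missed the threshold too. Without vehicle replicate 1 at 120 h both passed (0.77 and 1.24, adjusted p = 0.037 and 0.0017). Myl6b also passed without vehicle replicate 3 or dox replicate 1 (0.57 and 0.99, adjusted p = 0.047 and 0.049), and Myl4 without vehicle replicate 3 (-0.54, adjusted p = 0.042). With all 16 groups in 1 fit Mylk2 alone of the 8 passed, against 18.4% of genes in either direction.

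Between the strainer fractions the members tested had higher means in the myotube-enriched retentate. The main test did not use the replicate number. Without dox all 8 members tested had a positive log2 fold change, from 0.47 to 2.05 with a median of 1.59, beside -0.003 over all genes, and 7 of the 8 did not overlap between the fractions, against 10.8% of genes in that direction. None passed (adjusted p from 0.068 to 0.56 by edgeR), where 0.578% of 14023 genes were called higher. At an unadjusted p under 0.05 there were 2251 genes in either direction, and DESeq2 called 7 of the 8 members and 3.91% of its genes higher. Same-numbered libraries of these fractions deviated together, and with the replicate number as a block 6 of the 8 passed, against 3.17% of genes: Myl1 (1.95 ± 0.24, adjusted p = 0.012), Myl2 (1.96 ± 0.34, adjusted p = 0.030), Myl4 (1.68 ± 0.15, adjusted p = 0.0050), Mylpf (1.39 ± 0.16, adjusted p = 0.010), Myl6b (1.60 ± 0.19, adjusted p = 0.0099) and Mylk2 (1.50 ± 0.16, adjusted p = 0.0076). Acta1 (0.94 ± 0.24, adjusted p = 0.083) and Actc1 (0.39 ± 0.21, adjusted p = 0.35) did not pass with the block. Myl1 was at 825, 1356 and 1760 CPM in the retentate and 171, 564 and 375 CPM in the flow-through. Actc1, at 1486, 1118 and 2854 against 1037, 1240 and 1734 CPM, was the member whose fractions overlapped. The flow-through still held 2388 to 3709 CPM of Acta1, so it was not free of differentiated RNA. Without replicate 1 of the myotube-enriched vehicle group, Myl2, Myl6b and Mylk2 passed in the fit without the block.

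With dox the 8 members had log2 fold changes from 0.97 to 2.28 between the fractions, and Myl1, Mylk2 and Acta1 did not overlap, as for 5.34% of genes in that direction. None passed (adjusted p = 1.0 for each), and 0% of all genes did in either direction, with 182 genes at an unadjusted p under 0.05 by edgeR and 7 called by DESeq2. The 3 myotube-enriched dox libraries disagreed. Replicate 2 had 2591 CPM of Myl1 and 120 CPM of Mylk2. Replicate 3 had 250 CPM of Myl1, 17.4 CPM of Mylk2 and 2349 CPM of Acta1, near the flow-through libraries with dox (220 and 246, 10.5 and 15.0, and 2053 and 2229 CPM). Replicate 1 had 482 CPM of Myl1 but 3432 CPM of Mylpf and 6231 CPM of Acta1, so its members did not move together. In that library 57.3% of the Myl4 counts were assigned to Myl4-204, a retained intron transcript, which took a median of 1.97% and at most 19.6% in the other 34 libraries from 48 h on. Mylpf-203, also a retained intron transcript, took 4.63% of the Mylpf counts there and at most 0.0756% elsewhere.

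Within each fraction none of the 8 members passed between dox and vehicle in the test without a replicate block. In the myotube-enriched fraction the log2 fold changes ran from -0.33 to 0.12 with standard errors of 0.53 to 0.79. The 95% interval for Acta1, taken from its standard error as if normally distributed and so narrow for this few libraries, ran from -1.28 to 0.80. Of all genes 0% passed there, with 79 at an unadjusted p under 0.05 by edgeR and 2 called by DESeq2. Without dox replicate 3 all 8 values were positive, from 0.01 to 0.51, and without dox replicate 2 all 8 were negative, from -1.80 for Myl1 to -0.0069 for Myl6b. In the myoblast-enriched fraction, with 2 dox libraries, Actc1 was at 1037, 1240 and 1734 CPM without dox and 537 and 837 CPM with it (-0.95 ± 0.28, adjusted p = 0.10), and Acta1 at 2388, 3709 and 3365 against 2053 and 2229 CPM (-0.55 ± 0.22, adjusted p = 0.20). Both actins were lower in both dox libraries than in any vehicle library, as were 20.3% of genes, and neither passed, where 2.52% of 14249 genes were called lower. The other 6 members overlapped between the groups. DESeq2 called Actc1 alone of the 8 (adjusted p = 0.0088), where it called 6.40% of genes lower. With the replicate number as a block, which rests on 2 pairs here, 4 passed as lower, where 14.5% of genes did: Myl1 (-0.97 ± 0.13, adjusted p = 0.0017 by edgeR), Mylk2 (-0.68 ± 0.16, adjusted p = 0.016), Acta1 (-0.71 ± 0.16, adjusted p = 0.012) and Actc1 (-1.12 ± 0.14, adjusted p = 0.0011). The dox effect did not differ between the fractions for any member at this spread (adjusted p = 1.0 by edgeR, with 217 of 15008 genes at an unadjusted p under 0.05 and 2 called by DESeq2).

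The lines with inducible Cdh23 or Mcam showed lower members with dox at 48 h, as iMyoD1 did. In iCdh23 all 7 members tested (all but Myl2 and Myl3) fell, where 32.4% of 14227 genes fell, and all 7 by more than 2-fold, where 17.0% did. Acta1 was at 2098, 2820 and 3384 CPM without dox and 12.2, 13.3 and 42.4 CPM with it, a 122-fold lower level (log2 fold change -6.93 ± 0.60, adjusted p = 5.6e-05 by edgeR). Actc1 went from 885, 1349 and 1496 CPM to 5.63, 6.88 and 19.9 CPM (-6.84 ± 0.58) and Mylpf from 598, 880 and 1327 CPM to 4.46, 7.48 and 16.9 CPM (-6.60 ± 0.59). With each library left out in turn, Acta1 ran from -7.77 to -6.63 and Actc1 from -7.63 to -6.53. The dox and vehicle libraries did not overlap for Acta1, Actc1 and Mylpf, nor for 35.0% of genes in that direction. Myl1 (-6.14 ± 0.73), Myl4 (-5.56 ± 0.58) and Mylk2 (-5.02 ± 0.54) followed, and Myl6b changed least, from 42.6 to 106 CPM to 12.5 to 14.2 CPM (-2.39 ± 0.31, adjusted p = 0.00041). In dox-treated iCdh23 the 9 genes took 0.00768% ± 0.00444 of all counts, against 0.520% ± 0.142 with vehicle.

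In iMcam all 7 tested also fell, where 24.8% of 13731 genes fell, with log2 fold changes from -2.98 ± 0.70 for Mylk2 to -1.65 ± 0.42 for Myl6b and adjusted p from 0.0028 to 0.015 by edgeR. All 7 were lower by more than 2-fold, where 9.85% of genes were. Acta1 was at 1727, 2344 and 4141 CPM without dox and 214, 210 and 612 CPM with it (-2.95 ± 0.51). Replicate 3 was the highest of its group for every one of the 7 genes in both arms, and the groups did not overlap, as for 31.6% of genes in that direction. Same-numbered libraries deviated together in this line, and with the replicate number as a block all 7 also passed, against 29.2% of genes. Without dox replicate 2, Myl1 and Myl6b did not pass (adjusted p = 0.058 and 0.059), nor did Myl6b without dox replicate 1 (adjusted p = 0.052). With each library left out in turn, Mylk2 ran from -3.94 to -2.11 and Myl6b from -1.95 to -0.98.

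**Figure D3:**
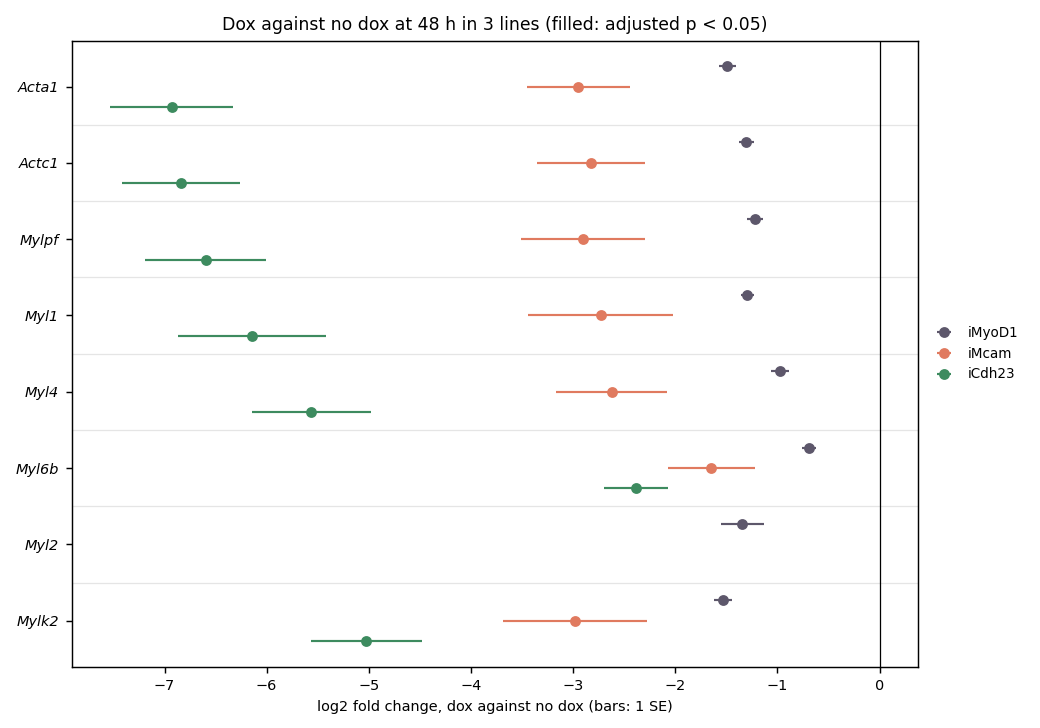
Log2 fold change of dox against vehicle at 48 h in the 3 lines, with 1 standard error on each side and filled points where the adjusted p was under 0.05. For Acta1 the values are -1.49 in iMyoD1, -2.95 in iMcam and -6.93 in iCdh23, and Myl6b has the smallest change in each line.

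The dox effect in iCdh23 against that in iMcam was tested as an interaction. It was more negative in iCdh23 for 4 of the 8 members tested, where 10.6% of 14552 genes differed in either direction: Actc1 (-3.99 ± 0.79, adjusted p = 0.0088 by edgeR), Acta1 (-3.96 ± 0.78, adjusted p = 0.0087), Mylpf (-3.67 ± 0.86, adjusted p = 0.019) and Myl4 (-2.92 ± 0.85, adjusted p = 0.048). The values for Myl1 (-3.39 ± 1.08, adjusted p = 0.068), Mylk2 (-2.01 ± 1.04, adjusted p = 0.27), Myl2 (-1.86 ± 2.24, adjusted p = 0.67) and Myl6b (-0.71 ± 0.58, adjusted p = 0.51) had the same sign and did not pass. The Myl4 call was lost without any of 10 of the 12 libraries, with adjusted p from 0.051 to 0.12. The Mylpf call was lost without iCdh23 dox replicate 2 or iMcam vehicle replicate 2 (adjusted p = 0.059 and 0.052), and Myl1 passed without iCdh23 vehicle replicate 1 or iMcam vehicle replicate 3 (adjusted p = 0.049 and 0.030). With the replicate number as a block 6 of the 8 passed, against 15.5% of genes in either direction, with Myl1 (-3.29 ± 0.16, adjusted p = 1.8e-06 by edgeR) and Mylk2 (-2.06 ± 0.42, adjusted p = 0.0073) added, and Myl4 had an adjusted p of 5.1e-06. By their correlations over all genes tested, the numbers paired the libraries in iMcam and not in iCdh23. For Mylpf, Myl1, Myl4 and Myl6b, however, replicate 3 of iCdh23 was also the highest in both arms. With the block, the dox effect within iCdh23 had an SE of 0.11 for Myl1 and 0.20 for Mylpf. The gene that the other line carries was higher with dox in every library. Mcam in iCdh23 went from 4.77 to 7.57 CPM to 45.7 to 54.6 CPM, and Cdh23 in iMcam from 5.61 to 8.86 CPM to 44.0 to 57.2 CPM. Summed proliferation markers were at 671 to 1018 CPM without and 18.3 to 34.2 CPM with dox in iCdh23, and at 641 to 812 and 58.9 to 117 CPM in iMcam. Their part in the result was not tested. iMyoD1 was not compared with these lines by a test, and no line without a transgene was treated with dox here.

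The assignment of Myl1 counts to its starts differed between cultures, which was not tested. Transcripts from the downstream start are here Myl1-202 and all others that begin downstream, among them Myl1-208, a retained intron transcript. Their share of Myl1 counts was 61.8%, 63.5% and 62.4% at 48 h without dox and 55.9%, 57.3% and 60.1% with dox. Of Myl1-201 plus Myl1-202 alone, per length, Myl1-202 took 66.9% to 70.1% without dox and 58.5% to 67.4% with it, so these overlapped. In the whole culture at 120 h the share of downstream transcripts was 84.0%, 89.0% and 87.8% without dox and 88.4%, 88.0% and 88.9% with dox. All 6 libraries of 120 h thus lay above all 6 of 48 h, and at 120 h the dox and vehicle libraries overlapped. Counts from the downstream start went from 256 ± 11.2 to 1254 ± 69.6 CPM between 48 and 120 h without dox, and those from the upstream start from 153 ± 4.23 to 188 ± 38.0 CPM, so the later increase of Myl1 lay mostly on transcripts from the downstream start. In the strained fractions of the same age the share was lower, from 63.8% to 76.6% in 11 libraries, and did not overlap with the whole culture. Fractions and whole cultures are in separate tables and were handled differently, so the table and the handling cannot be told apart in this difference. Of the shorter unique parts of both transcripts only salmon's assignment is known, and 28.4% of the 31-base words of Myl1-201 and 38.7% of those of Myl1-202 also occur in the pseudogene Mylf-ps.

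**Figure D4:**
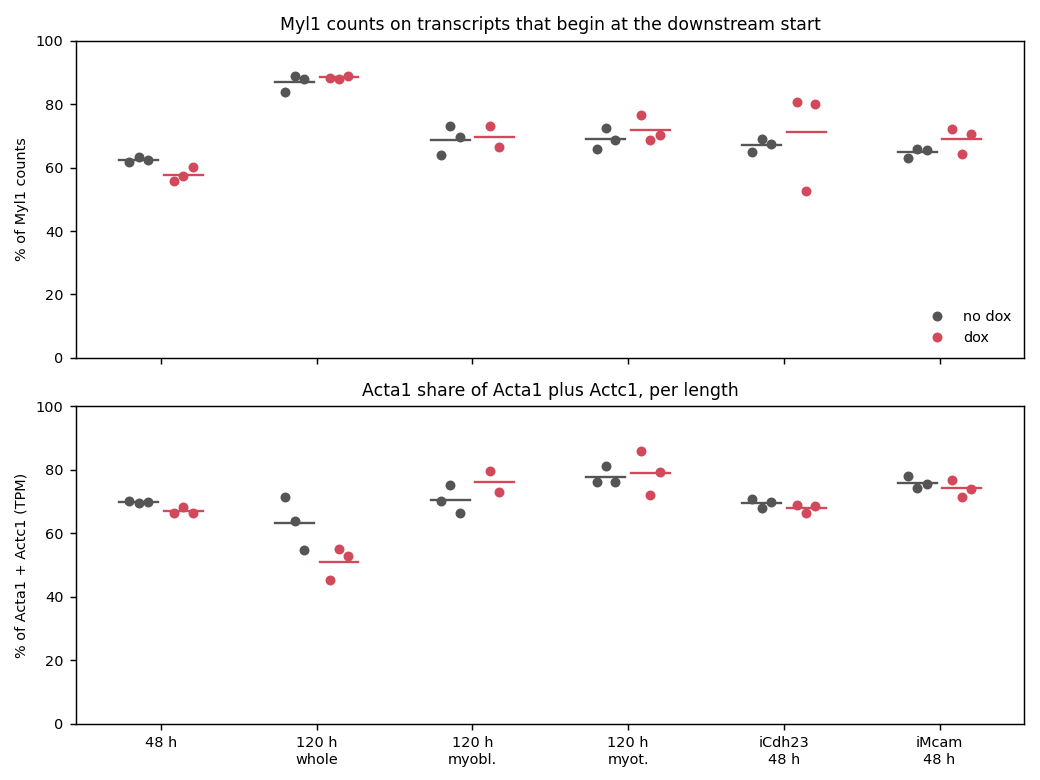
Share of Myl1 counts on transcripts from the downstream start (top) and Acta1 as a percentage of Acta1 plus Actc1 TPM (bottom), 1 point per library with a line at the mean, without dox (grey) and with dox (red). The whole cultures at 120 h stand highest in the top panel, at 84.0% to 89.0%, and range from 45.3% to 71.5% in the bottom panel, where the vehicle libraries overlap other groups.

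Acta1 took the larger mean share of the 2 actins in all 16 groups. Per length, Acta1 was 69.9% ± 0.225 (SD, n = 3) of Acta1 plus Actc1 at 48 h without dox in iMyoD1 and 67.1% ± 0.985 with it. In iCdh23 it was 69.5% ± 1.35 without dox and 67.8% ± 1.38 with it, although Acta1 and Actc1 fell 122- and 114-fold there, and in iMcam 76.0% ± 1.83 and 74.1% ± 2.74. In the whole culture at 120 h it was 63.3% ± 8.46 without dox and 51.1% ± 5.06 with it, with 1 vehicle library (54.6%) below the highest dox library (54.9%). In the fractions and at 0 h the mean was higher with dox. It was 77.9% ± 2.97 without and 79.1% ± 6.92 with dox in the myotube-enriched fraction, 70.6% ± 4.46 and 76.3% ± 4.60 (n = 2) in the myoblast-enriched fraction, and 80.9% ± 16.6 and 94.7% ± 6.32 at 0 h, where both actins were near 0 CPM. The myotube-enriched libraries overlapped, at 76.2%, 81.3% and 76.1% without dox and 85.8%, 72.0% and 79.5% with it. The 85.8% was that of dox replicate 1, the library with most Myl4 counts on a retained intron transcript. At 24 h the mean was lower with dox, 63.6% ± 4.85 against 74.0% ± 6.91. None of these shares was tested, and fractions and whole cultures were again handled differently. The coding sequences of Acta1 and Actc1 are identical at 86.2% of 1134 bases, and those of Acta1 and Acta2, the smooth muscle actin, at 85.4%. Of the 31-base words of the Acta1 transcript 4.45% also occur in other genes, most of them in Actb, and of those of Actc1 0.832%. Part of their reads could thus be split between actins. Acta1 also overlaps Gm20388 on the opposite strand, which had up to 119 CPM, and the strand setting of the counting is not given in the sources used here.

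The ratios between light chains changed as well. Per length, Mylpf stood 4.86 ± 0.158 times above Myl1 at 48 h and 2.14 ± 0.0378 times at 120 h without dox, and with dox 5.22 ± 0.194 and 3.47 ± 0.222 times. These groups did not overlap between times. Acta1 was 1.71 ± 0.0517 times Mylpf at 48 h and 0.550 ± 0.219 times in the whole culture at 120 h without dox, beside 1.18 ± 0.412 times in the myotube-enriched and 1.56 ± 0.324 times in the myoblast-enriched fraction. The whole culture thus lay below both of its fractions. Fractions and whole cultures were handled differently and come from separate sets of libraries, which cannot be told apart in this difference.

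Myl3, the slow and ventricular essential chain, had at most 10 counts in any library. Its highest level was 0.459 CPM, in a myotube-enriched vehicle library, and it had no count in any library at 0 or 24 h. It passed no filter on low counts and no test was made. Myl2 was the other low member, with its highest group mean, 17.5 ± 1.31 CPM, in the whole vehicle culture at 120 h, above every library of every other group. The vehicle fractions of that age were at 5.25 ± 3.31 CPM (myotube-enriched) and 1.28 ± 0.590 CPM (myoblast-enriched). They were handled differently and come from a separate set of libraries, which cannot be told apart in this difference.

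The other light chains and actins, 10 genes, had a mixed response to dox in iMyoD1. At 48 h 8 could be tested, and dox lowered 3 and raised 3 of them (28.7% and 27.9% of all genes), from Actg2, an enteric smooth muscle actin (log2 fold change -0.73), to Myl12b, a non-muscle regulatory chain (0.71). Their median was 0.001 beside -1.30 for the members. At 120 h in the whole culture 2 of 9 fell and 2 rose (23.7% and 21.4% of all genes), and Myl9, the smooth muscle regulatory chain, went from 8.33 to 14.9 CPM to 60.1 to 79.5 CPM with dox (2.54, the highest of that list). Myl9 rose in the myoblast-enriched fraction too (1.66), while it fell with dox in iCdh23 (-1.80) and iMcam (-0.84). In these lines the list moved in the direction of the members: 7 of 8 fell in iCdh23 (32.4% of all genes, median -1.41) and 6 of 8 in iMcam (24.8%, median -0.84). It also rose with them from 24 to 48 h, 7 of 8 without dox (38.4%) and 8 of 8 with it (36.9%). From 48 to 120 h without dox all 8 of this list that were tested fell (34.1% of all genes), from -2.82 for Myl9 to -0.39 for Myl12a.

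Of 10 kinases, calmodulins and phosphatase subunits that act on light chains, 3 rose and 2 fell with dox at 48 h, near or below the 27.9% and 28.7% of all genes. The highest was Mylk (2.33), the smooth muscle and non-muscle light chain kinase, and the lowest Mylk4 (-1.05). Mylk also rose with dox at 0 h (0.99), at 24 h (1.54), in the whole culture at 120 h (0.91), in the myoblast-enriched fraction (0.89), in iCdh23 (0.77) and in iMcam (1.35), while the skeletal kinase Mylk2 fell at 48 h in all 3 lines. Mylk4 also fell in iCdh23 (-6.06). Of 8 genes of thin filament assembly, 7 fell with dox at 48 h in iMyoD1 (28.7% of all genes), from Nrap (-1.96) to Cfl2 (-0.39). The same number fell in iCdh23 (32.4% of all genes), from Lmod3 (-7.44) to Cfl2 (-1.41), and in iMcam (24.8%), from Nrap (-2.62) to Cfl2 (-0.60). Lmod3 is an actin nucleator of the thin filament and Cfl2 the muscle cofilin. In the whole culture at 120 h 4 of the 8 fell (23.7% of all genes), from Lmod3 (-2.09) to Nrap (-0.79). All p-values of these lists are edgeR's, adjusted over all genes tested.

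Across the means of all 16 groups the members differed in which genes outside the set followed them most closely, by Pearson's r of log2(CPM + 0.5). These groups share lines, times and controls, and the step between 24 and 48 h spans much of the range of the members. How far r rests on that step was not tested. The nearest genes were Myom3 for Myl1 (r = 0.996), Cav3 for Myl4 (r = 0.998), Tnnt3 for Mylpf (r = 0.996), Mybph for Acta1 (r = 0.996) and Rbm24 for Actc1 (r = 0.997). Those of Myl6b (Aamdc, r = 0.989), Mylk2 (Sh3bgr, r = 0.978) and Myl2 (Ptp4a2, r = 0.961) were less close. Among the members themselves Acta1 and Actc1 were closest (r = 0.995), followed by Myl1 and Myl4 (r = 0.993).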

How the data were processed

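Polyadenylated RNA from 47 cultures in 16 groups was sequenced by the authors as paired-end libraries and quantified with salmon in the nf-core RNA-seq workflow. The deposited tables hold salmon's estimated counts per transcript and gene, which are not whole numbers, and the build is mm10 per the labels. The annotation release and the strand setting are not given in the sources used here. Of 109617 transcripts, 98.72% were found in GENCODE vM21, from which lengths, symbols and coordinates were taken, and transcripts without a length held at most 0.552% of the counts of a library. Because salmon shares reads among similar transcripts, values of paralogous actins and of single Myl1 transcripts depend on its model.

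The estimated counts were summed here per gene (45706 gene IDs, 45143 with a symbol, which made 45650 genes once IDs sharing a symbol were added together) and rounded to whole numbers. Each comparison used only its own groups: filterByExpr, TMM and the quasi-likelihood test of edgeR 4.0.16 (R 4.3.3), with Benjamini-Hochberg adjustment over all genes tested and a threshold of 0.05. There were 16 comparisons and 3 interaction tests. CPM used TMM-scaled library sizes. TPM was computed from annotated transcript lengths. Values are mean ± SD over libraries, fold changes ± SE. A fold against a group with at most 3 counts per library was computed against that floor, and it covers counting error only, since reads carry no molecular identifiers. Total counts of 15066338 to 50950674 per library set the precision of low members such as Myl2 and Myl3. Tables of 0 and 24 h, of 48 and 120 h whole iMyoD1, and of the remaining libraries are separate.

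The labels call the replicates biological, without saying how cultures were separated, so p-values measure the spread between these libraries. An exact permutation test of 3 against 3 could not go below 0.1 and was not used. The 9 genes, the related lists and the markers were chosen with earlier results of these data known. Members were named in every comparison. From each related list the text gives the highest and the lowest value among genes that passed, and a few further values of those genes were chosen after they were seen. The gene nearest to Myl3 in pattern is not reported here. Alternatives were RLE scaling, no low-count filter, DESeq2 1.42.0, all 16 groups in 1 fit, the replicate number as a block, and each library left out in turn. Levels were also computed with RLE factors and without scaling factors, and the actin share without division by length.

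Same-numbered libraries were checked by the correlation of their deviations from the group means. It exceeded 0.1 for every pair in iMcam dox against vehicle (0.207 to 0.398) and between the fractions without dox (0.103 to 0.392), so there the numbers were taken to pair the libraries, as a reading of the data and not of the labels. The myoblast-enriched dox comparison had only 2 pairs (0.290 and 0.410), too few to decide.

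On simulated counts with 200 genes changed 4-fold, edgeR recovered 200 of them at 48 h (13881 genes), 198 in the myoblast-enriched comparison (14186 genes), 118 in the myotube-enriched comparison (14023 genes) and 197 for the interaction between 120 and 48 h (14685 genes), with 20, 18, 7 and 13 false calls. In the myoblast- and myotube-enriched comparisons DESeq2 recovered 197 and 171, with 51 and 52 false calls. Sequences and motifs were read from RefSeq and GENCODE tables with Python 3.11.15.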

Additional observations from a re-analysis of the deposited data

Results flagged for a closer look

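The dox effect on 4 genes differed between 48 and 120 h in whole C2C12 iMyoD1 cultures by a test of the difference itself (edgeR interaction term). The log2 effect at 120 h minus that at 48 h was -0.89 for Myl2, 0.87 for Mylpf, 1.94 for Mylk2 and 1.06 for Actc1, where 34.1% of all genes differed. With all 16 groups in 1 fit Mylk2 alone of these passed. The dox effect also differed between the lines iCdh23 and iMcam at 48 h by the same kind of test, with a log2 difference of -2.92 for Myl4, -3.67 for Mylpf, -3.96 for Acta1 and -3.99 for Actc1, each more negative in iCdh23, where 10.6% of all genes differed. The call of Myl4 was lost without any of 10 of the 12 libraries and that of Mylpf without 2 of them, with edgeR adjusted p up to 0.12 and 0.059. Levels in single libraries were not screened for values far from the rest, because every group holds 3 libraries or fewer.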

How the results depend on the processing

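Of the log2 fold changes recomputed under every alternative, 1502 kept direction and call, 52 newly passed, 55 no longer passed and 51 changed sign, and of the counts of members called 377 stayed within 1.5-fold and 21 moved further. RLE scaling changed no call. Of the group levels, 17 moved by more than their SD without scaling factors (127 did not) and 2 with RLE factors, and 1 actin share moved without division by length (to 69.6%). The cause was not tested for any of the following. With all 16 groups in 1 fit, the members called numbered 0 higher with dox at 0 h, 4 lower at 48 h, 3 lower in the whole culture at 120 h, 2 higher and 0 lower from 48 to 120 h without dox, 3 higher and 0 lower with dox, 2 higher from 0 to 24 h with dox, 5 higher between the fractions without dox and 1 in the interaction of 120 with 48 h, and Myl6b with dox in the myotube-enriched fraction became -0.0035. DESeq2 called 1 member lower with dox in the myoblast-enriched fraction and 7 higher between the fractions without dox. Without a low-count filter these counts were 2 (Myl1 and Actc1) and 6.

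With the replicate block they were 4 (Myl1, Mylk2, Acta1 and Actc1, from only 2 pairs) and 6. The block turned Myl4 to -0.32 with dox in the myoblast-enriched fraction, and Myl4, Myl6b and Mylk2 to -0.13, -0.094 and -0.48 in the myotube-enriched one. It turned the difference between the fractions' dox effects to 0.16 for Myl4 and 0.00022 for Mylpf. By correlations over all genes tested, the numbers did not pair the libraries of iCdh23 (0.12, 0.037 and 0.14). Nor did they pair those of the myotube-enriched dox comparison (-0.13, -0.19 and -0.42). Under the block Actc1 in the whole culture at 120 h had an edgeR adjusted p of 0.16, and Myl1 and Mylk2 also passed in the difference between iCdh23 and iMcam.

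Leaving out each library in turn gave 0 to 1 members higher with dox in the whole culture at 120 h, 0 to 3 higher between the fractions without dox and 2 to 5 that differ between iCdh23 and iMcam. The log2 values whose sign changed ranged as follows. With dox in the myotube-enriched fraction they ran from -1.80 to 0.22 for Myl1, -0.86 to 0.23 for Myl2, -0.30 to 0.49 for Myl4, -0.52 to 0.21 for Mylpf, -0.43 to 0.42 for Myl6b, -1.37 to 0.51 for Mylk2, -0.47 to 0.13 for Acta1 and -1.08 to 0.15 for Actc1. For the difference between the fractions' dox effects they ran from -1.18 to 0.89 for Myl1, -0.38 to 0.46 for Myl4, -0.39 to 0.35 for Mylpf, -0.96 to 0.97 for Mylk2 and -0.16 to 1.09 for Actc1. Actc1 ran from -0.0100 to 0.71 between the fractions without dox, and Myl2 from -5.60 to 0.068 in iCdh23 against iMcam. Myl4 ran from -0.12 to 0.27 from 0 to 24 h with dox, from -0.41 to 0.0021 with dox at 0 h and from -0.44 to 0.41 in the myoblast-enriched fraction, where Mylpf ran from -0.49 to 0.15. Myl6b ran from -0.27 to 0.092 from 0 to 24 h without dox, from -0.51 to 0.16 from 48 to 120 h without dox and from -0.13 to 0.55 with dox in the whole culture at 120 h.

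Low counts kept Myl3 from every test, Myl1 and Myl2 from those of 0 and 24 h without the 48 h libraries, Mylpf and Actc1 from that of dox at 0 h, and Myl2 from those of dox within iCdh23 or iMcam.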
